A study of Mus musculus with 4 samples.

Results

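The genes described here are the microRNA genes in the list of genes related to differential m6A peaks, set between MIN6 cells that received a GR expression vector and MIN6 cells that received a control vector. They were chosen from the gene list itself, as every distinct gene ID whose symbol starts with Mir and a digit or with Mirlet7, and they number 244 of the 9225 gene IDs listed (2.64%). Over the whole reference, 19.2% of genes were listed. MIN6 cells come from a mouse insulinoma and serve as beta-cell models. The labels name the transfected protein GR, taken here to be the glucocorticoid receptor, and the strain C57BL/6. Both arms received 10 µg of plasmid per dish with Lipofectamine 2000, and RNA was taken 24 hours later. GR cells and control cells each gave 1 library from immunoprecipitation with an anti-m6A antibody and 1 input library, 4 libraries in all. With 1 library of each kind per arm, nothing below has a replicate check.

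N6-methyladenosine (m6A) is a methyl mark on RNA that is common near stop codons and in the last exons of messenger RNAs. A microRNA is cut from a hairpin in a longer primary transcript, first by Drosha with Dgcr8 in the nucleus and then by Dicer in the cytoplasm, and many microRNA genes lie inside the transcript of another gene, their host. Methylation of primary transcripts by Mettl3 is known to help Dgcr8 recognise them, and the bases next to the 5′ end of the mature microRNA, its seed, choose the messenger RNAs it represses.

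The gene list gives no peak position, fold change or library value. It therefore does not say whether a peak was higher or lower with GR, nor which bases of a microRNA gene or of its neighbourhood a peak covered. Fragments of a host transcript are sequenced with those of the hairpin inside it, so a listed microRNA gene is a gene assigned to a peak and not a measured microRNA. A gene that is not listed may still have a differential peak that was assigned to another gene.

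The sequences of the members on which the results turn are printed from RefSeq (build GRCm38.p6, the assembly behind mm10), whose tables held a mature microRNA for 227 and a hairpin for 216 of the 244 members. Capitals mark the seed, bases 2 to 8 counted from the 5′ end. The first set is the miR-26 family, for which every gene in the reference was listed. Mir26a-1 and Mir26a-2 give the same mature strand from hairpins on chromosomes 9 and 10, and Mir26b lies on chromosome 1.
mmu-miR-26a-5p: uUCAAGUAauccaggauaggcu
mmu-miR-26b-5p: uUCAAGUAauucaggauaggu

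The second set shares the seed UGGGGGA, carried by 3 reference genes that were all listed and that lie on different chromosomes in unrelated hosts (Jag2, Nelfa and Clspn).
mmu-miR-6941-5p: cUGGGGGAcugacggguagcu
mmu-miR-7024-5p: uUGGGGGAuggguugcuuggc
mmu-miR-7119-5p: cUGGGGGAuugggugccuucu

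The third set is miR-103 and miR-107, whose genes lie in pantothenate kinase genes and which are known to restrain insulin signalling in mouse liver and fat.
mmu-miR-103-3p: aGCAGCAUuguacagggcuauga
mmu-miR-107-3p: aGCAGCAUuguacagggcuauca

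The fourth set holds the listed microRNAs with the let-7 seed.
mmu-let-7f-5p: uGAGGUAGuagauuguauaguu
mmu-let-7g-5p: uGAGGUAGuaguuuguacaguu
mmu-miR-98-5p: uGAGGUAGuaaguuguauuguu

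The last set holds a strand of each of the 5 members with the most lines, and of miR-33 and miR-1306, which lie in genes of sterol control and of microRNA processing.
mmu-miR-6921-5p: uGAGGGGCaugagguaggaagc
mmu-miR-1967: uGAGGAUCcuggggagaagaugc
mmu-miR-3065-5p: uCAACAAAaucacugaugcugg
mmu-miR-7021-3p: uCUCUGUGcuucugcuccuuag
mmu-miR-7211-5p: uCUUUCCCucugccacuccacc
mmu-miR-33-5p: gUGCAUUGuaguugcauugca
mmu-miR-1306-3p: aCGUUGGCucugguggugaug

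The members took 422 of the 17052 lines of the list (2.47%). None of the 244 had a symbol in the list itself, so all were found through their Ensembl IDs. Of the members, 135 (55.3%) stood on 1 line, 70 (28.7%) on 2, 21 on 3, 13 on 4 and 5 on more than that. Of the other 8981 listed genes, 55.6% stood on 1 line and 25.7% on 2. The mean was 1.73 lines per microRNA gene and 1.85 lines per other listed gene. On 5 lines or more stood 2.05% of microRNA genes (95% interval 0.67% to 4.72%) and 4.42% of other genes, a share within that interval. The highest number was 8 lines over the 244 microRNA genes and 52 lines over the 8981 other genes. All lines of a gene are identical. What a line stands for is not given in the sources used here. Map1lc3b stood on 14 lines, with 2 peaks in the authors' deposited table of autophagy genes, whereas Atg101 and Pik3r4 stood on 2 lines with 2 peaks each. Atg16l2, Ulk3, Map1lc3a and Pik3c3 stood on 2 lines with 1 peak each. Atg4c and Atg12 stood on 1 line with 2 peaks each, so lines could also be fewer than peaks. That table may not hold every peak assigned to a gene, and a peak in it may have been assigned to another gene. It therefore cannot settle what a line is. Intervals here and below are exact Clopper-Pearson 95% intervals over genes, which cover counting error only and say nothing of a difference between GR and control cells.

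**Figure D1:**
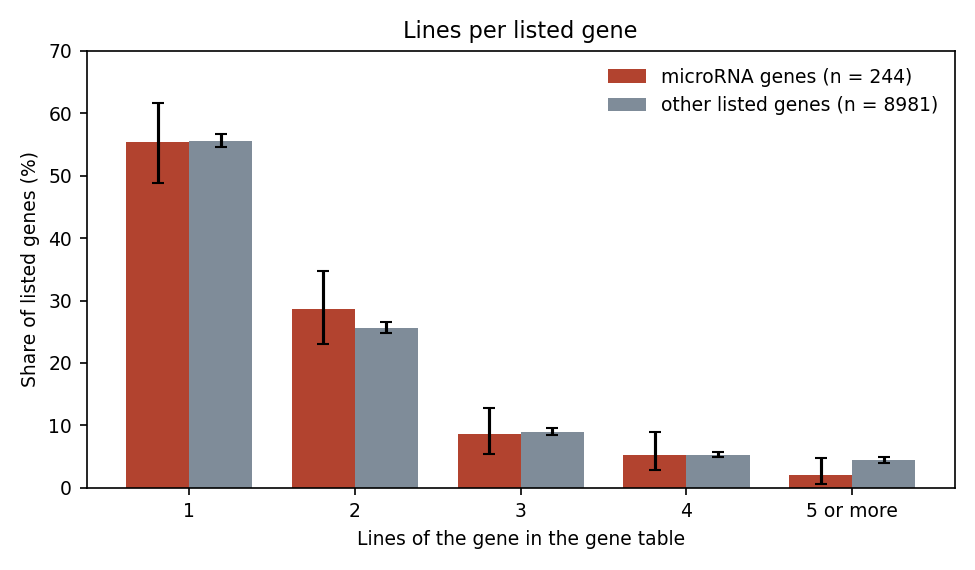
Share of listed genes (y axis, percent) that stood on 1, 2, 3, 4 or 5 and more lines of the gene list (x axis), for the 244 microRNA genes (red, left) and the 8981 other listed genes (grey, right); error bars are exact 95% intervals. On 1 line stood 55.3% of microRNA genes and 55.6% of other listed genes.

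Mir6921 had the most lines, 8. Its hairpin lies at chr11:60200538-60200617 on the minus strand, near the 3′ end of Srebf1 (relative position 0.94, where 0 is the 5′ end of the host and 1 its 3′ end). Srebf1 encodes SREBP-1, a transcription factor of fatty acid and sterol synthesis, and stood on 1 line. Mir33 lies in the sister gene Srebf2, at chr15:82198122-82198190 and relative position 0.88. Mir33 stood on 1 line and Srebf2 on 2. The microRNA and its SREBP host gene were thus both listed at both loci, with more lines for the microRNA gene at Srebf1 and fewer at Srebf2.

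The next 4 members stood on 6 lines each, and the gene around each of them was not listed. Mir1967 lies near the 5′ end of Urb2 (chr8:124022641-124022722, relative position 0.04). Mir3065 lies at chr11:120014767-120014853 on the strand opposite to Aatk, a neuronal kinase gene, and overlaps Mir338 over all of its 87 bases. Mir338, which is cut from the Aatk transcript, was not listed, nor was Aatk. Mir7211 lies opposite to Tmcc3 (chr10:94586137-94586199). Mir7021 lies within Prdm2, a histone methyltransferase gene whose strand was not in the tables used (chr4:143136100-143136162).

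The 13 members on 4 lines were Mir1191, Mir1249, Mir1895, Mir1896, Mir193b, Mir5114, Mir6418, Mir671, Mir6934, Mir6995, Mir7031, Mir7646 and Mir7679. The gene around them was listed for 2, Mir671 in Chpf2 (1 line), a gene of chondroitin sulfate synthesis, and Mir6995 in Sh3pxd2a (1 line), an adaptor of invasive cell protrusions. The unlisted ones included Scd2, a fatty acid desaturase, around Mir5114, Gnb2, a G protein subunit, around Mir6418 and Sh2b3, an adaptor of cytokine signalling, around Mir7031.

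MicroRNA genes were listed about as often as genes in general. Of the 1173 microRNA genes in the reference that have an Ensembl ID, 242 were listed (20.6%, 95% interval 18.3% to 23.1%), against 19.2% of all 38502 reference genes and 26.3% of protein-coding genes. The other 2 members, Mir1957b and Mir3096, were not in the reference table. The share for microRNA genes lay below that of protein-coding genes and above that of the other short or noncoding classes, which was 13.3% for lncRNA genes, 10.4% for snRNA genes, 9.36% for snoRNA genes and 7.89% for pseudogenes. Since presence in the list chose the members, these shares are a description.

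The share was not even among microRNA genes. Of those numbered 5000 or above in their name, many of which are short hairpins found by deep sequencing inside coding genes, 145 of 471 were listed (30.8%, interval 26.6% to 35.2%). Of those numbered from 1000 to below 5000 it was 47 of 177 (26.6%), and of those numbered below 1000, which include most of the conserved families, 50 of 525 (9.52%, interval 7.15% to 12.4%). The highest numbers therefore made up 59.9% of the members. The same order held for lying inside a same-strand protein-coding gene, counting only genes whose strand was known. The share was 62.0% of reference microRNA genes numbered 5000 or above, 52.5% of those from 1000 to below 5000 and 31.2% of those below 1000. By chromosome the share ran between 9.57% on chromosome 12, which carries the large Dlk1-Meg3 microRNA cluster, and 40.0% on chromosomes 4 and 19.

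**Figure D2:**
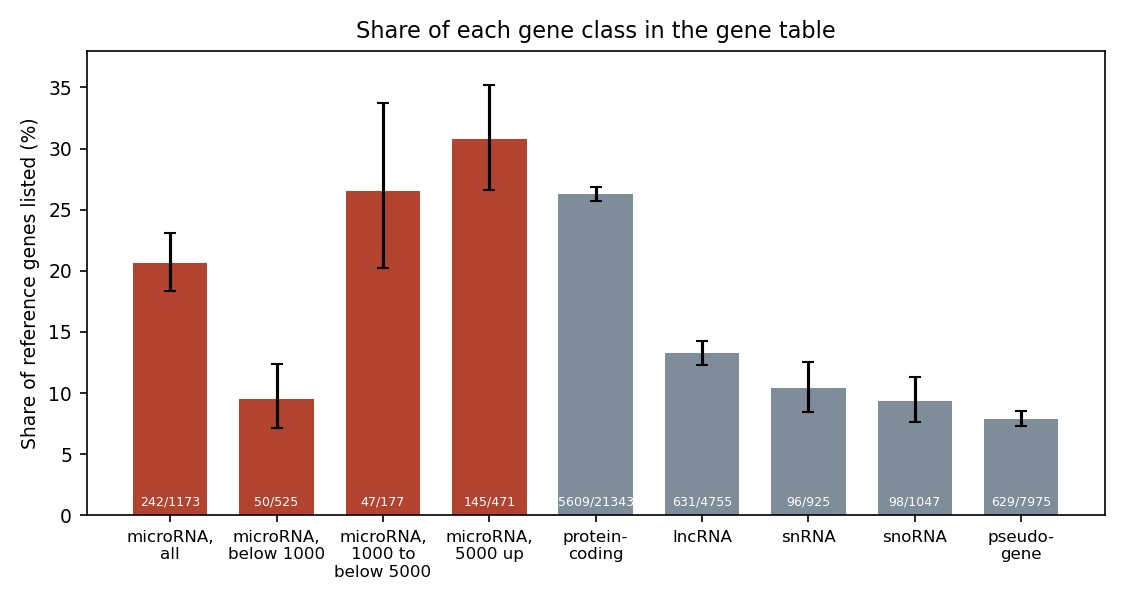
Share of reference genes found in the gene list (y axis, percent) for microRNA genes as a whole and by the number in their name (red) and for other gene classes (grey); numbers in the bars are listed genes over all genes of the class, and error bars are exact 95% intervals. The microRNA genes numbered below 1000 stand at 9.52% and those numbered 5000 or above at 30.8%.

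Most members lay inside another gene. By coordinates, 222 of 242 listed microRNA genes (91.7%) lay within a gene on either strand, against 690 of 931 unlisted ones (74.1%). Of 229 listed microRNA genes of known strand, 167 (72.9%, interval 66.7% to 78.6%) lay within a protein-coding gene of the same strand. Among unlisted ones it was 321 of 793 (40.5%, interval 37.0% to 44.0%). A gene without a strand in the tables used could not count as such a host, so both shares are lower bounds. Genes of unknown strand are also left out of the counts of coding hosts below. Seen from the other side, microRNA genes were listed in 46.1% of cases where the coding host was listed (53 of 115), in 30.5% where it was not (113 of 370), and in 7.66% where the microRNA lay whole in no gene on either strand (20 of 261).

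The host itself was usually not listed. A listed coding host was found for 53 of 166 listed microRNA genes with an Ensembl ID for the host (31.9%, interval 24.9% to 39.6%), and for 62 of 319 unlisted ones (19.4%, interval 15.2% to 24.2%). Both shares are to be read beside the 26.3% of all protein-coding genes that were listed. For 113 members the microRNA gene was thus listed and the host was not. Among the 53 pairs with both listed, 21 microRNA genes had more lines than the host, 22 as many and 10 fewer.

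Same-strand hosts on 3 or more lines numbered 8. On the opposite strand, or where the strand was unknown, the gene around 1 further member stood on as many, Poglut3 (5 lines) around Mir130c (1 line). Mir3082 (3 lines) lies in Stub1 (3 lines), which encodes the ubiquitin ligase CHIP, and Mir7033 (3 lines) in Pom121 (3 lines), a nuclear pore gene. Mir7076 (2 lines) lies in Ctrb1 (4 lines), a chymotrypsinogen gene of pancreatic acinar cells, and Mir7227 (1 line) in Arid1a (4 lines), a subunit of the BAF chromatin remodelling complex. Mir6956 (2 lines) lies in Triobp, and Mir6399, Mir6909 and Mir7670 (1 line each) lie in Eif4g3, Plpp2 and Ubn2, all hosts with 3 lines.

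Within their hosts the listed microRNA genes lay towards the 3′ end. The median relative position was 0.73 for 167 listed microRNA genes (quartiles 0.44 and 0.88) and 0.51 for 321 unlisted ones (quartiles 0.25 and 0.77). Of the listed ones 120 (71.9%, interval 64.4% to 78.5%) lay past the midpoint of the host, against 164 of the unlisted ones (51.1%, interval 45.5% to 56.7%). The median distance to the host's 3′ end was 6493 bases for listed and 14644 bases for unlisted microRNA genes, whereas the distance to its 5′ end was 17238 bases for listed and 18850 bases for unlisted ones. The hosts differed in length as well, with a median of 28942 bases for listed and 43622 bases for unlisted microRNA genes. In hosts under 100000 bases, 70.1% of listed and 56.2% of unlisted microRNA genes lay past the midpoint.

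**Figure D3:**
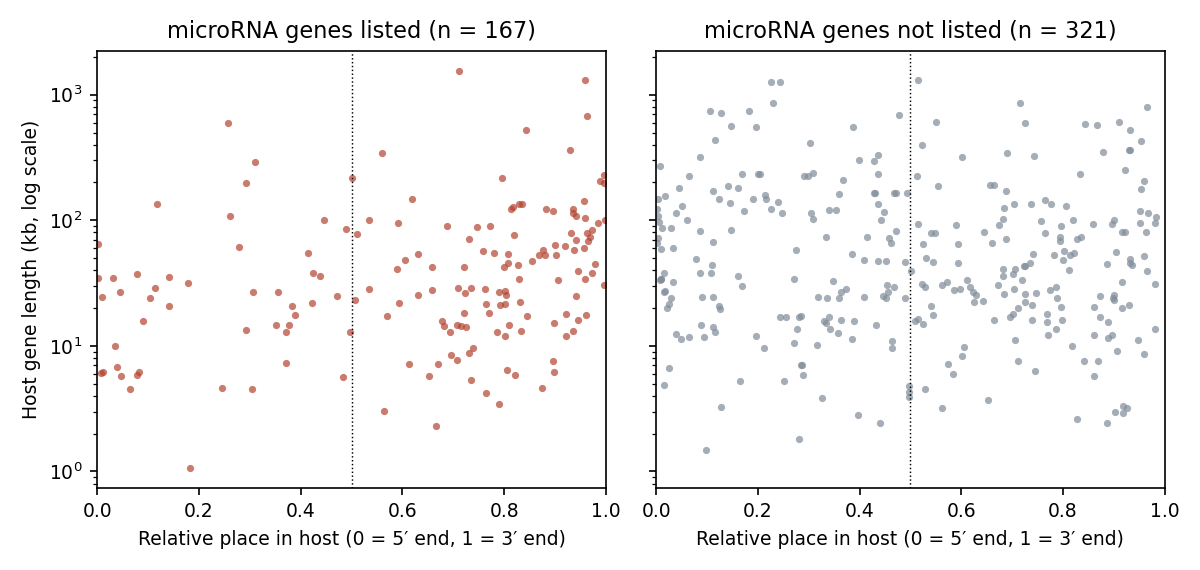
Relative position of each microRNA gene in its smallest same-strand protein-coding host (x axis, 0 at the 5′ end and 1 at the 3′ end) against host length (y axis, kilobases on a log scale), for 167 listed (left, red) and 321 unlisted (right, grey) microRNA genes; the dotted line marks the midpoint. Of the listed points 71.9% lie right of the line, and of the unlisted points 51.1%.

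Cut into 5 equal bins from the 5′ to the 3′ end of the host, the share of microRNA genes that were listed was 24.4%, 22.5% and 23.8% in the first 3 bins. It was 39.4% in the fourth bin and 49.3% in the last, where 66 of 134 were listed (interval 40.5% to 58.0%). The last interval does not reach those of the first 3 bins. Of the listed microRNA genes 38.9% lay within 5000 bases of the host's 3′ end, against 21.5% of the unlisted ones. The corresponding shares for the 5′ end were 21.6% for listed and 25.2% for unlisted microRNA genes. Whether a microRNA lies in an exon or an intron of its host was not analysed here.

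**Figure D4:**
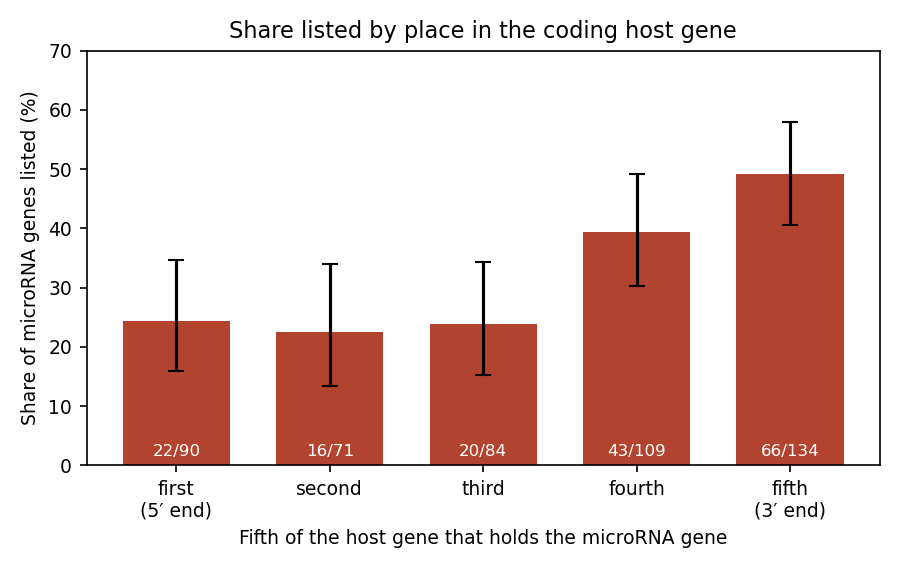
Share of microRNA genes that were listed (y axis, percent) by the fifth of the host gene they lie in, 5′ end at the left (x axis); numbers in the bars are listed over all microRNA genes, and error bars are exact 95% intervals. The share is between 22.5% and 24.4% in the 3 bins on the left and 49.3% in the bin at the 3′ end.

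The authors' deposited table of autophagy genes, which alone gives peak positions, was set beside the gene list at single peaks. Of its 31 peaks, 23 lie in genes whose strand, and so whose transcription start, was in the tables used. Genes without a strand were also left out of the search for the nearest start, so a nearer start may have been missed. For 10 of these the nearest gene start to the centre of the peak was that of the gene the authors name, and for 9 of the 10 that gene was in the gene list. These counts are of peaks and not of genes, and Atg4c, Map1lc3b and Pik3r4 each have more than 1 of the 10. For the other 13 peaks the nearest start belonged to another gene. The Dram2 peak was a near tie, 25926 bases from its own start and 25922 from that of Cept1. So was the Gabarapl1 peak, at 8059 bases against 7967 for 1700101I11Rik. The gene the authors name was listed for 1 of these 13 (7.69%, interval 0.19% to 36.0%), and the gene with the nearest start for 5 (38.5%, interval 13.9% to 68.4%). Both intervals contain the 26.3% of all protein-coding genes that were listed, and how peaks were assigned was not tested. The exception in the 13 is Atg101, which has a second peak beside its own start. The exception in the 10 is Ppp2ca, which was not listed although a peak of it (chr11:52098835-52099087, log2 fold change -0.95 in the authors' deposited table) is centred 137 bases from its own start. Among the peaks in genes without a strand in the tables used, those of Ppp2cb and Map1lc3a both run from the 5′ untranslated region to the first exon. Of the genes of these peaks, Map1lc3a, Atg12 and Pik3c3 were listed, and Ppp2cb and Rb1cc1 were not.

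A microRNA gene had the nearest start for 3 of the 23 peaks. In the authors' deposited table the last exon of Atg2a, a lipid transfer gene of autophagy, has a peak at chr19:6261659-6262217 with a log2 fold change of -1.24 (GR against control). It lies 2426 bases before Mir194-2, whose start is 2705 bases from the centre of the peak, against 20460 bases to the start of Atg2a. Mir194-2 was listed on 1 line, and Atg2a was not listed. In the authors' deposited table the last exon of Ppp2ca, a catalytic subunit of protein phosphatase 2A, has a peak at chr11:52121931-52122483 with a log2 fold change of -1.85. It lies 4263 bases before Mir3061, which stood on 2 lines, and Ppp2ca was not listed. The third was the Atg5 peak, at -0.55 in the authors' deposited table, 3390 bases from Mir1929. Neither Mir1929 nor Atg5 was listed. No other peak of that table lay within 10000 bases of a reference microRNA gene.

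Only 20 members with known coordinates lay whole in no gene, and of these Mir718, Mir5625 and Mir8109 overlap a gene in part. For 4 of the 20 the nearest gene was listed (Cdk9, Gtf2i, Ccnb2 and 0610010K14Rik). That share (20.0%, interval 5.73% to 43.7%) is near the 19.2% of all reference genes. For 16 of the 20 the nearest gene was within 10000 bases. Mir122, the main microRNA of hepatocytes, stood on 1 line, 16603 bases from Alpk2, which was not listed. Mir130a stood on 1 line, 987 bases from an unlisted lncRNA gene.

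Clustered microRNA genes were listed less often than single ones. Genes on the same strand at most 10000 bases apart formed 70 clusters, of which 14 held a listed gene and 12 of these held a single one. Of all genes in clusters 16 of 240 were listed (6.67%, interval 3.86% to 10.6%), against 213 of 782 outside clusters (27.2%, interval 24.1% to 30.5%). The 9.52% of reference microRNA genes numbered below 1000 lies within the interval for clustered genes. Clustering was not set apart from the number in the name or from the host, so its own part was not tested. The 9 clusters of 5 or more genes held 107 genes and none was listed. Counted by gene this allows a share of up to 3.39%, but genes of a cluster may share a primary transcript. Counted by cluster, 0 of 9 allows up to 33.6%. Among these clusters are Mir17 to Mir92-1, the polycistron of growth control, the Mir290 to Mir295 and Mir302 clusters of pluripotent cells, and a Dlk1-Meg3 cluster of 38 genes. No cluster had 3 listed genes.

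Clusters with 2 listed genes numbered 2. Mirlet7f-2 and Mir98 lie in Huwe1, a ubiquitin ligase gene that was not listed, and stood on 1 line each. Mir5132 lies in Irak1, a kinase gene of Toll-like receptor signalling, and Mir718 overlaps its 5′ end. Both stood on 1 line, and Irak1 was not listed. In the other clusters the listed gene was the first (5 clusters) or the last (7 clusters) of the row, never one in the middle, but only 2 of these clusters have a middle gene. In the Mcm7 cluster, Mir25 was listed on 1 line, Mir93 and Mir106b were not, and the host Mcm7, a replicative helicase subunit, stood on 2 lines. In the Mir23b cluster, Mir23b was listed on 1 line, and Mir27b and Mir24-1 were not. Mir193b stood on 4 lines beside the unlisted Mir365-1, Mir195a on 2 beside Mir497, and Mir6921 on 8 beside Mir6922, also in Srebf1.

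**Figure D5:**
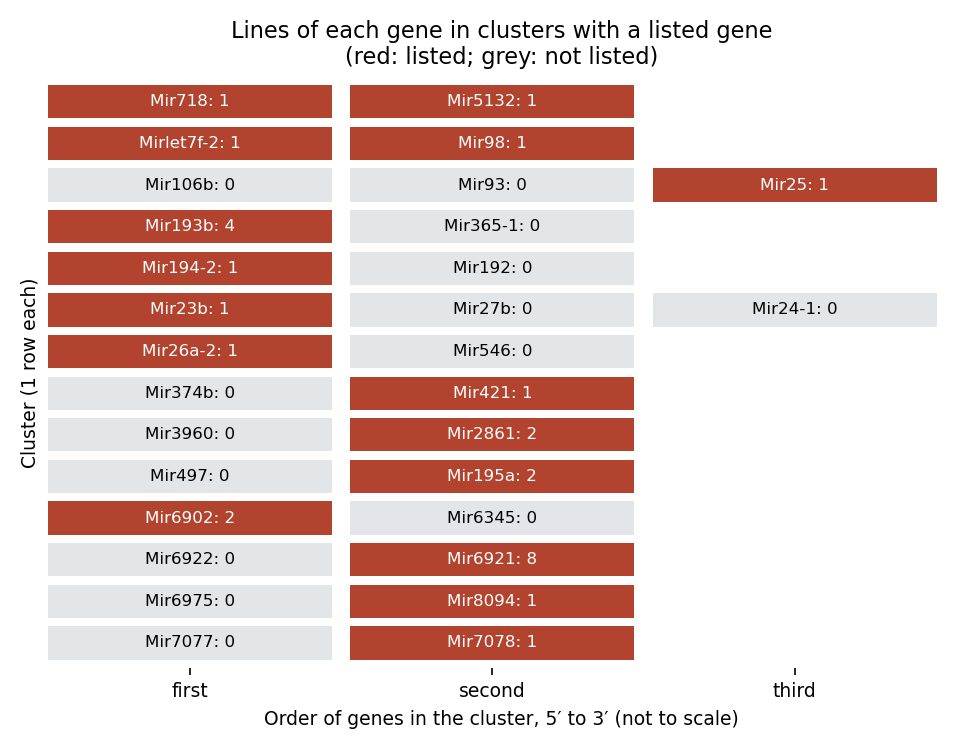
Lines in the gene list of each microRNA gene in the 14 clusters that hold a listed gene, 1 cluster per row, with genes placed in order from 5′ to 3′ (x axis, not to scale); red boxes are listed genes and grey boxes genes with 0 lines. In 12 of the 14 rows a single box is red.

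Some microRNA genes overlap on opposite strands. Of 21 such pairs, 4 had 1 gene listed and none had both, where a count of 0 leaves an interval up to 16.1%. With 4 genes listed in all, pairs with both listed would be few in any case, so nothing is read from their absence. The listed ones were Mir3065 (6 lines), Mir126b (2 lines), Mir451b and Mir3074-1 (1 line each), opposite Mir338, Mir126a, Mir451a and Mir24-1. The listed gene is in each pair the antisense hairpin of the better known microRNA. Whether strand was used when peaks were assigned is not given in the sources used here, and without it reads of such a pair cannot be told apart.

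By seed, 43 of the 227 members with a mature sequence shared a seed with another member, in 21 groups, and in 8 of the groups every reference gene was listed. These groups are small, with a median of 3 reference genes, and were kept for having 2 or more listed genes. They hold only genes with a mature sequence in the reference, so an unlisted gene without such a sequence could not make a group incomplete. Of all 205 seeds carried by 2 or more reference genes, 45 had 1 listed gene and 139 had none. Sharing a seed with another reference gene was less common among listed microRNA genes (80 of 227, 35.2%, interval 29.0% to 41.8%) than among unlisted ones (354 of 786, 45.0%, interval 41.5% to 48.6%), and these intervals overlap slightly. The groups below are therefore given as a description. The miR-26 family had all 3 genes listed, with Mir26a-1 on 2 lines and Mir26a-2 and Mir26b on 1 line each. Each lies in a gene of the small C-terminal domain phosphatases (Ctdspl, Ctdsp2 and Ctdsp1), and none of the 3 hosts was listed. The passenger strands of Mir26a-2 and Mir26b share the seed CUGUUCU with Mir6932 and Mir7039, which were listed too.

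The genes of the seed UGGGGGA, Mir6941, Mir7024 and Mir7119, stood on 2 lines each and their hosts Jag2 (a Notch ligand), Nelfa (a subunit of the negative elongation factor) and Clspn (a replication checkpoint gene) on none. Of the 3 genes with the seed GCAGCAU of miR-103 and miR-107, Mir107 in Pank1 stood on 2 lines and Mir103-1 in Pank3 on 1. Mir103-2 was not listed, nor were Pank1 and Pank3. Of the 13 genes grouped under the let-7 seed 3 were listed, Mirlet7f-2, Mir98 and Mirlet7g. Mirlet7g lies in Wdr82, which was not listed. Mirlet7a-2, a let-7 gene that this group leaves out, was not listed either. Of 7 genes with the seed AUUGCAC, shared by miR-92, miR-25 and miR-32, Mir25 and Mir32 were listed, on 1 line each.

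The letters GGAC, the core of the m6A consensus, stood in 58 of 216 listed hairpins (26.9%, interval 21.1% to 33.3%) and in 177 of 742 unlisted ones (23.9%, interval 20.8% to 27.1%). Read on the other strand, they stood in 25.0% of listed and 24.1% of unlisted hairpins. The longer GGACU stood in 8.80% of listed and 7.95% of unlisted hairpins. GAC, which GGAC and GGACU contain, stood in 61.6% of listed and 62.3% of unlisted hairpins. The intervals of all these pairs overlap. GAAC, a lesser form of the motif, stood in 14.4% of listed hairpins (interval 9.96% to 19.7%) and in 22.0% of unlisted ones (interval 19.0% to 25.1%), a wider gap in the opposite direction to that of GGAC. Listed hairpins were shorter, at a median of 74.5 against 80 bases, and richer in G and C, at 55.6% against 50.6%. The median for G and C was 57.0% of listed against 52.8% of unlisted hairpins numbered 5000 or above. Below 5000 it was 53.0% against 47.9%. The motif shares were not adjusted for this difference in composition. The hairpins of Mir6921, Mir26b and Mir1306 show such matches, with GGAC in capitals. A match is a stretch of letters and not a methylated site.
Mir6921 hairpin: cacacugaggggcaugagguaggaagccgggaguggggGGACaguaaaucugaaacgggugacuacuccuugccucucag
Mir26b hairpin: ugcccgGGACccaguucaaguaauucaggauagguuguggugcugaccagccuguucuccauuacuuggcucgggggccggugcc
Mir1306 hairpin: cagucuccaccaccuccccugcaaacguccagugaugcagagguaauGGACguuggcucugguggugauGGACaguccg

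The genes that make and use microRNAs were described from a list of 38, of which 14 were listed (36.8%, interval 21.8% to 54.0%), beside 26.3% of protein-coding genes. In the core pathway 6 of 14 were listed. They were Drosha and Dgcr8 (1 line each), which cut primary transcripts, Dicer1 (3 lines), which cuts the hairpin, Ago1 and Ago2 (1 line each), which hold the mature strand, and Tnrc6c (1 line), which recruits deadenylases. The exporter Xpo5, the Dicer partner Tarbp2, Ago3 and Ago4 were not listed. Of 24 regulators 8 were listed, among them Mettl3 (3 lines), the catalytic m6A methyltransferase, Hnrnpa2b1 (2 lines), a reader of m6A in primary microRNAs, Ddx5 (1 line) and Ddx17 (2 lines), helicases of the Drosha complex, and Khsrp (2 lines), which binds terminal loops. The let-7 inhibitors Lin28a and Lin28b were not listed.

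Some members lie inside genes of this pathway. Mir1306 stood on 3 lines in Dgcr8 (1 line), at relative position 0.14, where its hairpin is known as a target of Drosha within the Dgcr8 transcript. Mir3064 and its host Ddx5 stood on 1 line each. Mir7036 (1 line) lies in Srrt, which links the cap-binding complex to microRNA processing, and Mir5113 (2 lines) in Tnrc6b, a GW182 scaffold gene, at relative positions 0.92 and 1.00. Neither host was listed.

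Of 83 genes for microRNAs described in islets or beta cells, 12 were listed (14.5%, interval 7.70% to 23.9%), in 8 of 30 families. Both the 20.6% of all reference microRNA genes and the 9.52% of those numbered below 1000 lie within that interval, so the share of the list was near the background. Besides the 3 genes of miR-26, Mir103-1, Mir107, Mir33, Mir130a, Mirlet7f-2 and Mirlet7g, they were Mir21a, Mir124a-2 and Mir9-2 with 1 line each. Mir21a, a microRNA raised in inflamed islets, lies 209 bases before the 3′ end of Vmp1, an autophagy gene that was not listed. Mir124a-2 and Mir9-2 lie in noncoding host genes that were not listed. Mir375, among the most abundant microRNAs of beta cells, was not listed, nor were the genes of miR-7, miR-184, miR-204, miR-200, miR-29 and miR-30.

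Members also entered the authors' deposited pathway tables. In the authors' deposited table of KEGG pathways, 4 members stood in 8 pathways, and each was mapped there to the protein-coding gene that contains it. Mir671 was counted as Chpf2, also listed under its own ID, in metabolic pathways (p 1.53e-41) and chondroitin sulfate synthesis (p 0.00558) of the authors' deposited table. Mir8094 was counted as Ddx39b, an RNA helicase of splicing and export, in spliceosome (p 1.26e-14), RNA transport, mRNA surveillance and influenza A of the authors' deposited table, although Ddx39b itself was not in the gene list. Mir6357 stood likewise for the unlisted Poli, a DNA polymerase, in the Fanconi anemia pathway, and Mir6340 for Rab22a, listed under its own ID, in endocytosis.

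In the authors' deposited table of GO terms, 16 members stood in 912 of 16568 terms, 471 of them with Mir21a. In the authors' deposited table the term for gene silencing by miRNA had 42 of 152 genes with a peak, and 14 of the 42 were members. The term for mRNA binding in posttranscriptional silencing had 13 of 76 in the authors' deposited table, all of them members. Mir103-1 and Mir107 stood in the term for insulin receptor signalling, with 37 of 117 genes in the authors' deposited table. For each of these terms the p given in the authors' deposited table is 1.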

How the data were processed

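RNA fragments from MIN6 cells were immunoprecipitated with an anti-m6A antibody, per the labels' protocols. Per the submitters' processing notes, the tools were BWA 0.7.12 and HOMER 4.9.1 and the build was mm10; the peak caller, its thresholds and the rule that assigns peaks to genes are not given in the sources used here. The deposited gene list holds a gene ID per line and no measurement, so depth is unknown. The deposited autophagy table gives, per the file headers, peak bounds and a log2 fold change. The p-values of pathways and terms were computed by the authors, per the file headers.

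Symbols came from a table of Ensembl IDs, which matched 9217 of 9225 IDs. Coordinates, strands and sequences came from RefSeq tables of GRCm38.p6. A host contains the whole hairpin. Position was taken in the smallest same-strand protein-coding host. A gene without a strand in these tables was never counted as a same-strand host. Strand was known for 229 of 242 listed and 793 of 931 unlisted microRNA genes. Clusters allow gaps of at most 10000 bases. Members, both gene lists and alternatives were chosen with earlier results of these data known. Named genes were those with most lines, in the beta-cell list, in hosts on 3 or more lines or in the largest seed groups; others, such as those near autophagy peaks, were chosen after their values were seen. Counting functions were tested on simulated data. Python 3.11.15, SciPy 1.17.1 and Matplotlib 3.10.9 were used.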

Additional observations from a re-analysis of the deposited data

How the results depend on the processing

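No paired analysis was possible because each arm had 1 library of each kind and no result comes from a test. By the symbols in the gene list alone, 0 microRNA genes would be found in place of 244, and by the reference's gene class 249. With identical lines merged, the mean is 1 line per gene in place of 1.73. Gaps of up to 50000 bases give 23 clusters with a listed gene in place of 14. Seeds of bases 2 to 7 give 45 shared groups in place of 21. GGACU stood in 8.80% and GAC in 61.6% of listed hairpins, against 26.9% for GGAC. Counted by family, 26.7% of beta-cell microRNAs had a listed gene, against 14.5% by gene. Of unlisted microRNA genes, 43.5% of those numbered below 5000 and 58.1% of those numbered 5000 or above lay past the midpoint of the host, against 51.1% overall; for listed ones the corresponding values were 71.4% and 72.1%. Over all 6 alternatives of that measure, added after seeing the data, listed microRNA genes stayed between 69.3% and 77.4%. The limits are the missing replicates, the unknown depth and peak rule, and a list without fold or position.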
